A study of Mus musculus with 6 samples.

Results

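Dapl1, Igfbp4, Actn1, Ms4a4b, Ms4a6b, Ets1 and Satb1 are 7 genes whose transcripts are found in naive T cells or in the thymocytes that become them. They were taken from the array by gene symbol, 1 probe set each, and make up 7 of the 19938 genes measured. They were selected on the knockout and wildtype levels of these same 6 arrays, as naive T cell genes of which some were lower in the knockout, so their differences between genotypes are given as a description and without p-values. RNA came from CD4 single-positive thymocytes, thymic T cells that have kept CD4 and lost CD8, on 6 arrays. The 3 wildtype samples were Ly5.1+ and the 3 Bach2 knockout samples were Ly5.1-, where Ly5.1 is a form of the surface protein CD45 used to sort the genotypes apart. Both came from male mice on a C57BL/6 background: lethally irradiated Rag1 knockout recipients, which cannot make T or B cells themselves, were given a 1:1 mix of wildtype and knockout bone marrow at 8 weeks of age, from donors of 8 weeks, and the thymus was taken 2 months later. The knockout reached every cell that came from the knockout marrow, Ly5.1 always went with genotype, and the sources used here do not say which part of Bach2 is missing.

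A naive T cell is one that has left the thymus and has not yet met its antigen. It rests in a quiescent state, circulates through blood and lymphoid organs, and needs survival signals to persist. Bach2 is a transcriptional repressor that helps to hold T cells in this state and restrains effector genes. Single-positive thymocytes switch on much of the naive programme while they mature in the thymic medulla. Of the 7 genes, Dapl1 (death-associated protein-like 1) encodes a small protein and serves as a transcript marker of naive T cells. Igfbp4 encodes a secreted protein that binds insulin-like growth factors. Actn1 encodes an alpha-actinin, which crosslinks actin filaments. Ms4a4b and Ms4a6b encode surface proteins that cross the membrane 4 times and are found on T cells. Ets1 is a transcription factor needed for T cell development and survival, and Satb1 organises chromatin in developing thymocytes.

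The sequences upstream of 4 of these genes are shown because Dapl1 and Igfbp4 were the pair that differed between the genotypes, and Ms4a4b and Ms4a6b are near neighbours of one family whose levels moved together from array to array. Each is the window from 250 bases before to 50 bases after the start of the gene, 300 bases in all, from RefSeq on assembly GRCm38.p6, written 5′ to 3′ on the strand of the gene. Capitals mark the motifs searched.
Dapl1 (chr2:59484403-59484702, plus strand): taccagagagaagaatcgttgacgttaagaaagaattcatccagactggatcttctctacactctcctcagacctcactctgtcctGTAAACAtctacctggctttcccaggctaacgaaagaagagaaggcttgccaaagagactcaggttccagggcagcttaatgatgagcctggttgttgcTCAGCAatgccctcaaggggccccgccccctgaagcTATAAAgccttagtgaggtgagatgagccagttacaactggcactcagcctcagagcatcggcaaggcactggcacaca
Igfbp4 (chr11:99040994-99041293, plus strand): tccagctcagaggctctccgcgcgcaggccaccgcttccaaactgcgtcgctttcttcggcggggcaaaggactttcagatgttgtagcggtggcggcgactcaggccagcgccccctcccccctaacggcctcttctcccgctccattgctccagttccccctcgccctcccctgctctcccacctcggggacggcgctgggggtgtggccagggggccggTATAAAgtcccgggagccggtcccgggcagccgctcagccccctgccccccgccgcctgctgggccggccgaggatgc
Ms4a4b (chr19:11443308-11443607, plus strand): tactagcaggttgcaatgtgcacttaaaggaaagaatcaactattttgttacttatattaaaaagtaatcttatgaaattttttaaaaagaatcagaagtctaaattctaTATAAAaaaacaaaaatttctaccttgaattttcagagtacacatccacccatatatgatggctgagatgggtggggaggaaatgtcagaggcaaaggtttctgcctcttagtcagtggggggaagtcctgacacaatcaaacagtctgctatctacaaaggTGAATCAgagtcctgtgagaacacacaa
Ms4a6b (chr19:11518309-11518608, plus strand): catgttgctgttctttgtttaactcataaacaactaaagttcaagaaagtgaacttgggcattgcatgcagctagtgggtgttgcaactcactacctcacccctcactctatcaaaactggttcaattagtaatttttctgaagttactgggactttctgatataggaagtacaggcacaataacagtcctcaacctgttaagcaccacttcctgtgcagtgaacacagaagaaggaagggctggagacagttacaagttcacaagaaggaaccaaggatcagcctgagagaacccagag

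Of the 4 motifs searched first, TGANTCA is of the AP-1 type, with any middle base allowed. TGCTGA is one arm of the Maf recognition element to which Bach factors bind with small Maf partners. TTCCGG is of the ETS type and TGTTTAC of the forkhead type. All 4 were searched on both strands. A further motif, TATAAA on the strand of the gene, was added after the sequences had been read. Windows were present for 6 of the 7 genes, 10 windows in all, 5 of them for Satb1. The Dapl1 window held TGCTGA on its reverse strand from base 186 and TGTTTAC on its reverse strand from base 87. These motifs occurred in 19.5% and 3.65% of the 32851 windows in the table. The Ms4a4b window held TGANTCA from base 273, there as TGAATCA. With any middle base, the motif was found in 7.81% of all windows. TTCCGG, present in 14.9% of all windows, was in 0 of the 10. Only this exact sequence was searched for the ETS type, so other ETS-type sites would be missed. The windows of Igfbp4, Ms4a6b, Actn1 and Satb1 held none of these 4 motifs.

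Both genes that differed carried TATAAA at the usual distance of a TATA box from the start. It began at base 222 of the Dapl1 window and at base 223 of the Igfbp4 window. Of all windows, 1.67% had TATAAA beginning within bases 218 to 226, around its most frequent position of 222, and 8.32% had it anywhere. Ms4a4b had it from base 111, farther upstream, and the windows of Actn1, Ms4a6b and Satb1 lacked it. The windows differed widely in base composition. G and C made up 51% of the Dapl1 window and 71.3% of the Igfbp4 window, against a median of 52.7% over all windows, 35.7% for Ms4a4b and 43% for Ms4a6b. A match of letters is a description and says nothing about whether a factor binds there.

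The targeted gene was lower on every knockout array. On a log2 scale, on which 1 unit is a doubling, Bach2 measured 7.89, 8.20 and 8.05 in wildtype replicates 1, 2 and 3 and 6.50, 6.42 and 6.52 in the knockout (limma, adjusted p = 0.000156). Cd4 was at 10.33 to 10.43 on all 6 arrays. Of 8 markers of CD4 T cell identity, 7 were measured and 0 were called. At an unadjusted limma p under 0.05, 1 of the 7 was higher and 0 lower, beside 3.04% and 3.87% of all genes. It was Cd28 (difference 0.25), named after its value was seen, and it lay higher on every knockout array. A gene is described as called when its limma p, adjusted over all 19938 genes, was under 0.05. Within wildtype the arrays correlated at 0.981 to 0.988 over all probe sets, within knockout at 0.990 to 0.991 and between the genotypes at 0.984 to 0.989. Wildtype arrays were thus about as close to knockout arrays as to each other. Levels of different genes come from different probe sets and were not ranked against each other.

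Dapl1 was lower on every knockout array than on any wildtype array. Its level was 5.85, 6.54 and 5.47 in wildtype replicates 1, 2 and 3 and 4.49, 4.05 and 3.56 in knockout replicates 1, 2 and 3, on the log2 scale. The lowest wildtype array still lay 0.98 above the highest knockout array. Wildtype cells averaged 5.95 ± 0.54 and knockout cells 4.04 ± 0.46 (SD, n = 3 each), a difference of -1.92 ± 0.27 (limma standard error), or 3.77-fold as the deposited values stand. All 9 pairings of a knockout with a wildtype array gave a lower knockout value, with differences from -2.97 to -0.98.

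Dapl1 was also variable among arrays of one genotype. Wildtype replicate 2 stood highest and replicate 3 lowest, 1.06 apart, and the 3 knockout arrays spread over 0.93. The pooled SD within groups, 0.50, was larger than that of 99.8% of genes, for which the median was 0.13. Its mean over the 6 arrays lay below 5.13, the median over all genes. The deposited values hold no detection calls, so how far its signal lay above background was not tested. RNA was measured in bulk, so fewer cells that hold a transcript and less transcript per cell cannot be told apart, here and for the other genes.

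Igfbp4 was lower in the knockout as well, by a smaller and steadier step. Its level was 9.63, 9.51 and 9.28 in wildtype replicates 1, 2 and 3 and 8.61, 8.68 and 8.23 in the knockout. The groups did not overlap, with a gap of 0.60 between the lowest wildtype and the highest knockout array. Wildtype cells averaged 9.47 ± 0.18 and knockout cells 8.51 ± 0.24 (SD, n = 3 each), a difference of -0.96 ± 0.14 (limma standard error), or 1.95-fold. Its within-group SD of 0.21 was larger than that of 84.3% of genes. Wildtype replicate 3 and knockout replicate 3 were the lowest arrays of their genotype for both Igfbp4 and Dapl1.

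**Figure D1:**
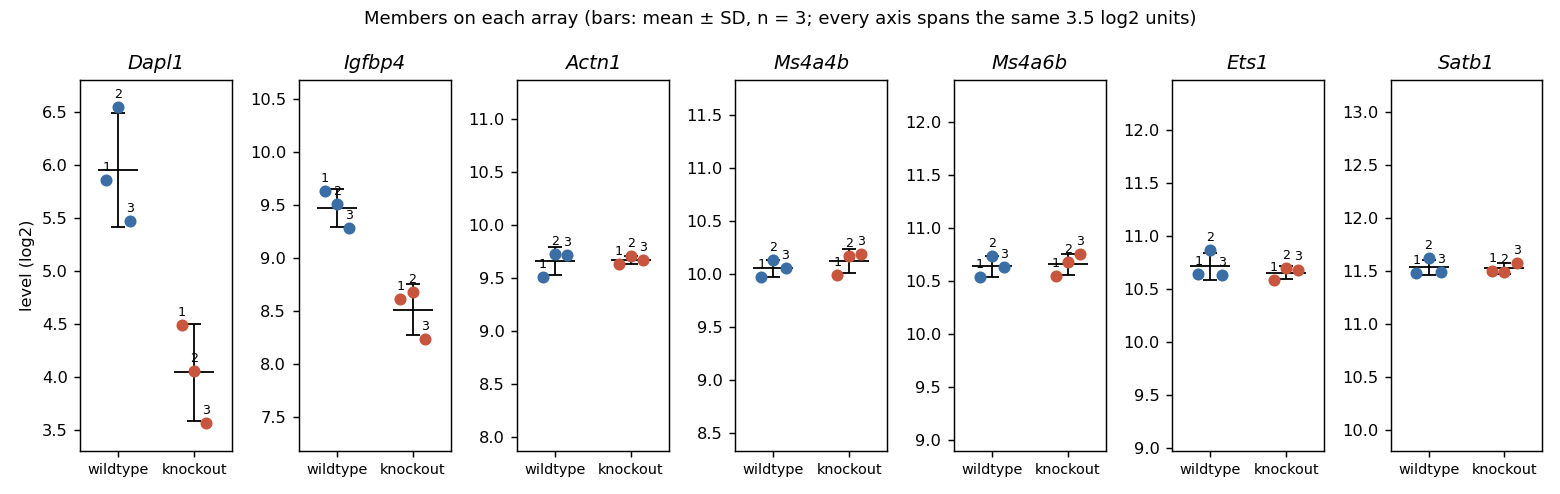
Level (log2) of each of the 7 genes on the 3 wildtype (blue) and 3 Bach2 knockout (red) arrays, numbered by replicate, with black bars for mean ± SD (n = 3) and axes that all span the same range. Dapl1 and Igfbp4 separate the genotypes with gaps of 0.98 and 0.60, whereas the groups of the other 5 genes overlap.

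Dapl1 and Igfbp4 were the 2 of 7 genes called lower, and 0 were called higher. Over all genes 0.216% were called lower and 0.351% higher. Likewise 2 of the 7 had all knockout values below all wildtype values, a pattern shown by 6.57% of all genes. As these genes were chosen with the contrast known, nothing is read from the shares or from the calls. When each array was left out in turn, the difference ran from -1.06 to -0.83 for Igfbp4 and from -2.16 to -1.62 for Dapl1. Dapl1 was not called without knockout replicate 2, where the difference was -1.92. Neither gene was called when all 35556 probe sets were tested together or when the spread was estimated from each gene alone, without limma's moderation, with the differences still at -1.92 and -0.96.

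The other 5 genes stayed within 0.13 to 0.27 log2 units over all 6 arrays. Actn1, the actin crosslinker, was at 9.51, 9.73 and 9.72 in wildtype replicates 1, 2 and 3 and at 9.63, 9.71 and 9.67 in the knockout, a difference of 0.02 ± 0.10 (limma standard error). The highest and the lowest Actn1 values were both wildtype. Ms4a4b was at 9.97, 10.13 and 10.05 in wildtype and at 9.99, 10.17 and 10.19 in knockout cells, a difference of 0.06 ± 0.10. Ms4a6b was at 10.54, 10.74 and 10.63 in wildtype and at 10.55, 10.68 and 10.76 in knockout cells, a difference of 0.03 ± 0.10. For both Ms4a genes replicate 1 was the lowest array in either genotype, and the genotypes overlapped almost completely.

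The 2 nuclear regulators, Ets1 and Satb1, were not called either. Ets1 was at 10.64, 10.86 and 10.63 in wildtype replicates 1, 2 and 3 and at 10.58, 10.69 and 10.68 in the knockout, a difference of -0.06 ± 0.10 (limma standard error). Wildtype replicate 2 alone stood above the rest. Satb1 was at 11.48, 11.62 and 11.49 in wildtype and at 11.50, 11.49 and 11.57 in knockout cells, a difference of -0.01 ± 0.09. The full range over 6 arrays was 0.13 for Satb1, the narrowest of the 7 genes, and 0.27 for Ets1, the widest of these 5. The pooled within-group SD of Satb1, 0.06, was larger than that of 7.55% of genes. For scale, the median absolute difference between genotypes over all genes was 0.08, and each of the 5 genes differed by less than that. A missing call does not show that levels were equal.

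Small movements of these 5 genes ran partly in parallel across the wildtype arrays. All 5 were highest in replicate 2 among the wildtype arrays, and 4 of 5 were lowest in replicate 1. Among the knockout arrays they parted, with Actn1 and Ets1 highest in replicate 2 and the Ms4a genes and Satb1 highest in replicate 3. Of the 1060 genes with a mean level above 9, 59.5% were highest in replicate 2 among the wildtype arrays, 39.7% were lowest in replicate 1 and 46.1% were lowest in replicate 3. The median of those genes on wildtype replicate 2 lay 0.05 above their mean over the 6 arrays. A second quantile normalization lowered the step from wildtype replicate 1 to 2 from 0.22 to 0.16 for Actn1 and from 0.13 to 0.10 for Satb1. It left the step in the same direction for all 5.

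**Figure D2:**
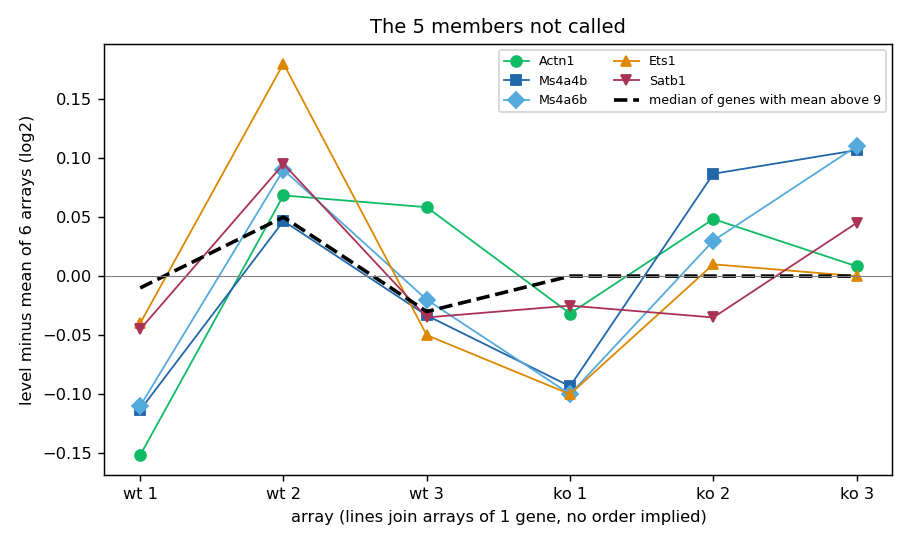
Level of the 5 genes that were not called on each array, as the deviation (log2) from the gene's mean over the 6 arrays, with the median of the 1060 genes whose mean level was above 9 as a dashed line. Every gene peaks at wildtype replicate 2 among the wildtype arrays, and the whole picture spans less than the gap of 0.60 between the genotypes for Igfbp4.

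Pearson's r between Dapl1 and Igfbp4 was 0.95 over the 6 arrays, a value that carries the genotype difference on which both were selected. It was 0.65 for the deviations from each group's mean, which leave that difference out. Ms4a4b and Ms4a6b had r = 0.94 for the levels and, at 0.96, the highest r of any pair for the deviations. Transcripts of related genes can hybridise to each other's probes. Whether those of Ms4a4b and Ms4a6b did so was not tested, so the values of either gene alone carry that uncertainty. Ets1 and Satb1 gave 0.83 and 0.85. Between Igfbp4 and the 5 level genes, r for the deviations ran from -0.54 for Ms4a6b to 0.00 for Ets1. Between Dapl1 and the same genes it ran from -0.19 for Ms4a4b to 0.43 for Ets1, close to the lowest value among those 5 genes themselves, 0.44 for Actn1 and Satb1. These values describe 6 arrays that share their processing, and they carry no test.

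Genes with a similar course were looked for among 261 named genes whose highest and lowest arrays differed by at least 1 log2 unit. Likeness over all 6 arrays includes the genotype difference, so genes found in this way tend to differ between genotypes, and their differences are given without p-values. The 4 most like Dapl1 by Pearson's r over the 6 arrays were Ccr8 (0.997), Mid1 (0.979), C1ql3 (0.965) and Amigo2 (0.961). Ccr8, a chemokine receptor of T cells, was at 8.45, 8.73 and 8.28 in wildtype replicates 1, 2 and 3 and at 7.99, 7.88 and 7.68 in the knockout. It repeated the order of the arrays seen for Dapl1 with smaller steps, with a difference of -0.64 ± 0.13 (limma standard error). Amigo2, a cell adhesion protein, averaged 6.82 ± 0.13 on the wildtype and 5.51 ± 0.40 on the knockout arrays (SD, n = 3 each).

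The 4 genes most like Igfbp4 were Lgals1 (0.995), Gsta4 (0.979), Arhgap20 (0.962) and Dapl1 itself (0.951). Lgals1, which encodes galectin 1, was at 9.54, 9.43 and 9.37 in wildtype replicates 1, 2 and 3 and at 8.74, 8.84 and 8.47 in the knockout, the same order of arrays as for Igfbp4 (difference -0.76 ± 0.11, limma standard error). Gsta4, a glutathione transferase, was at 7.33, 6.85 and 6.82 in wildtype and at 6.14, 6.22 and 5.53 in the knockout. For the 5 level genes the closest matches were Arrdc3 for Actn1 (r = 0.954), Gbp3 for Ms4a4b (0.956), Rag2 for Ms4a6b (0.935), Kif20b for Ets1 (0.985) and Bub1 for Satb1 (0.982). These matches follow movements of 0.13 to 0.27 log2 units in the 5 genes.

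Neither of the lower genes shares a chromosome with the altered locus or the sorting marker. Dapl1 lies on chromosome 2 and Igfbp4 on chromosome 11, whereas Bach2 lies on chromosome 4 and Ptprc, the gene of CD45, on chromosome 1. Of the 10 measured genes nearest to Dapl1 in gene order, 5 on each side, 0 were called, and their differences ran from -0.24 to 0.05. Of the 10 nearest to Igfbp4, 1 was called. This was Rara, the retinoic acid receptor alpha, 3 genes away and named after its value was seen, at 8.41, 8.64 and 8.44 in wildtype replicates 1, 2 and 3 and at 7.87, 7.81 and 7.91 in the knockout (difference -0.64 ± 0.10, limma adjusted p = 0.0209). The other 9 differed by -0.44 to 0.07. Ccr7, a chemokine receptor of naive T cells 2 genes away on the other side, differed by -0.15 (limma adjusted p = 0.887). It lay lower on every knockout array. Of the 10 genes nearest to each of the other members 0 were called.

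Other genes of the naive and quiescent programme were compared in a list of 30, of which 25 were measured under a symbol of their own. By limma over all genes 1 was called lower and 1 higher, against 0.216% and 0.351% of all genes, and at an unadjusted p under 0.05 there were 8 lower and 3 higher. Of all genes, 3.87% were lower and 3.04% higher at an unadjusted p under 0.05, the shares beside which this and the unadjusted counts that follow stand. Cd55, a surface inhibitor of complement, fell from 6.23 ± 0.28 to 4.17 ± 0.18 (SD, n = 3 each; limma adjusted p = 0.000208). The 3 wildtype arrays read 6.23, 6.51 and 5.95 and the 3 knockout arrays 4.27, 3.96 and 4.28, without overlap. Slamf6, a receptor of the SLAM family, rose from 7.89 ± 0.20 to 8.51 ± 0.05 (SD, n = 3 each; limma adjusted p = 0.0491). Leaving out each array in turn kept the call in 1 of 6 fits, that without wildtype replicate 2, with differences from 0.55 to 0.73, and the call was lost with the replicate number as a block.

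Across the list 18 genes lay below 0 and 7 above, and the median difference was -0.07, beside -0.01 over all genes. All knockout values lay below all wildtype values for 9 of the 25 genes and above them for 4. Over all genes these shares were 6.57% and 5.13%, and over the genes with a mean above the median they were 7.11% and 7.43%. The uncalled genes with the smallest p, named after their values were seen, were Il7r, Foxo1, Tdrp and Txk. Il7r, the receptor chain for the survival cytokine interleukin 7, was at 10.59, 10.78 and 10.64 in wildtype replicates 1, 2 and 3 and at 11.12, 11.13 and 11.22 in the knockout (limma adjusted p = 0.0706). Foxo1, a forkhead factor that sustains naive T cells, was at 8.70, 8.77 and 8.60 in wildtype and at 8.34, 8.25 and 8.29 in the knockout (limma adjusted p = 0.15). In both genes the genotypes did not overlap, with Il7r higher and Foxo1 lower on every knockout array. Lef1, a transcription factor of naive T cells, differed by -0.04, and Klf2, a factor for trafficking and quiescence, by -0.23. Neither was called, though Klf2 lay lower on every knockout array.

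**Figure D3:**
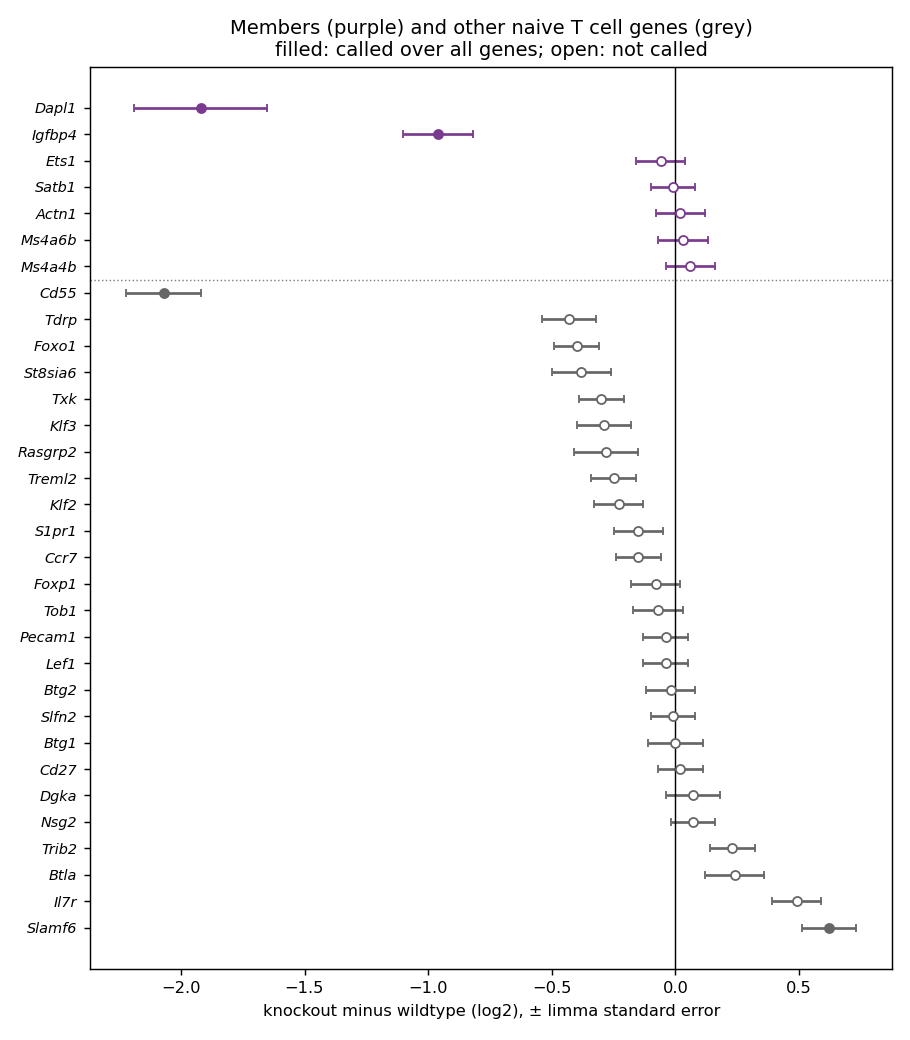
Knockout minus wildtype difference (log2) with its limma standard error for the 7 genes (purple) and 25 other naive T cell genes (grey), filled where called over all genes. Dapl1, Igfbp4 and Cd55 stand apart on the lower side, Slamf6 is the called gene on the higher side, and the remaining genes lie between -0.43 and 0.49.

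Relatives of the 7 genes gave no call. Of 15 other measured genes of the Ms4a family, 0 were called by limma, with 1 lower and 1 higher at an unadjusted p under 0.05 and a median difference of 0.01. The pair with the smallest p were Ms4a4c, the neighbour of Ms4a4b, at -0.50 (7.93, 8.21 and 7.97 in wildtype against 7.23, 7.57 and 7.81 in the knockout), and Ms4a7 at 0.38. Ms4a4c thus lay lower on every knockout array while Ms4a4b beside it overlapped. Of 17 further genes of the insulin-like growth factor axis (binding proteins, ligands, receptors and proteases), 0 were called, with 2 lower and 2 higher unadjusted and a median of -0.10. Igf1, a ligand that Igfbp4 binds, differed by 0.42 and the secreted glycoprotein Stc1 by -0.29. The other 6 binding proteins lay between -0.18 for Igfbp1 and 0.26 for Igfbp5.

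Of 12 other actinins and proteins that link integrins to actin, 0 were called, with 1 lower and 1 higher unadjusted and a median of 0.01. Itgal, a chain of the integrin LFA-1, differed by 0.36 and Itgb1 by -0.26. Of 16 other ETS factors 0 were called, again with 1 lower and 1 higher unadjusted, and the median was -0.02. Fli1, which adjoins Ets1 in gene order, differed by 0.25 and the repressor Erf by -0.25. Of 9 nuclear factors of thymocyte development measured beside Satb1, 0 were called and 1 was lower unadjusted, with 8 of 9 below 0 and a median of -0.13. Gata3, a factor for the CD4 lineage, differed by -0.26 and Bcl11b, which maintains T cell identity, by -0.20. Dap, the gene after which Dapl1 was named, differed by -0.19 (9.59, 9.29 and 9.18 in wildtype against 9.34, 9.06 and 9.09 in the knockout), and its genotypes overlapped. The median over all genes was -0.01.

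Transcripts that mark other cell types also differed between the arrays. Of 12 regulatory T cell markers 4 were called lower and 0 higher, with 9 lower and 1 higher at an unadjusted p under 0.05. The higher one was Gpr83 (0.72), named after its value was seen, and its genotypes overlapped. For 8 of the 12 all knockout values lay below all wildtype values, beside 6.57% of all genes. The summed signal of all 12 markers on a linear scale was 2855 to 4169 in wildtype and 2513 to 2621 in the knockout. Bright probe sets weigh most in such a sum. Within wildtype the sum was lowest in replicate 1. Foxp3, the defining factor of regulatory T cells, was at 7.30, 8.29 and 8.33 in wildtype replicates 1, 2 and 3. In the knockout it was at 5.58, 5.36 and 5.69 (limma adjusted p = 0.00148). Within wildtype, Dapl1 and Igfbp4 were lowest in replicate 3, and Igfbp4 was highest in replicate 1, where Foxp3 was lowest. Dapl1 was highest in replicate 2 (6.54), where the summed signal of the regulatory T cell markers was 4169. That signal was nearly the same in replicate 3 (4132), where Dapl1 was lowest (5.47) and Foxp3 highest (8.33). Whether the number of regulatory T cells had a part in the values of Dapl1 and Igfbp4 was not tested.

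Of 11 measured markers of immature thymocytes 0 were called, and their summed signal was 3652 to 4157 in wildtype and 3941 to 5574 in the knockout, highest in knockout replicate 3. Rag1, a recombinase of immature thymocytes, was at 5.70, 6.61 and 7.09 in wildtype replicates 1, 2 and 3 and at 6.55, 7.92 and 8.75 in the knockout, so the genotypes overlapped. The list did not go one way. At an unadjusted p under 0.05, 5 of the 11 were higher and 2 lower, and Cd24a (-0.58) and Sox4 (-0.46), the 2 lower ones, named after their values were seen, lay lower on every knockout array. Knockout replicate 3, with the highest Rag1, had the lowest Dapl1 and Igfbp4. Without that array the differences were -1.68 for Dapl1 and -0.83 for Igfbp4, and both were called. That fit keeps knockout replicate 2, whose Rag1 of 7.92 also lay above every wildtype array. Whether immature thymocytes had a part in the values of Dapl1 and Igfbp4 was not tested. Of 10 macrophage markers 1 was called higher, Lyz2 (limma adjusted p = 0.0256). Of the 10, 4 were higher and 0 lower at an unadjusted p under 0.05, and those 4 lay higher on every knockout array. The summed signal of the 10 was 304 to 331 in wildtype and 365 to 557 in the knockout. The markers of CD8 T cells (8 measured, 1276 to 1426 in wildtype and 1036 to 1627 in the knockout), innate-like T cells (6 measured, 567 to 814 and 444 to 510), B cells (5 measured, 100 to 131 and 120 to 133) and thymic epithelium (5 measured, 122 to 180 and 139 to 172) had 0 called. At an unadjusted p under 0.05, 5 of the 8 CD8 T cell markers and 2 of the 6 innate-like T cell markers were lower, of which 4 and 2 lay lower on every knockout array, and 0 of either list were higher. Their part in the values of the 7 genes was not tested.

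**Figure D4:**
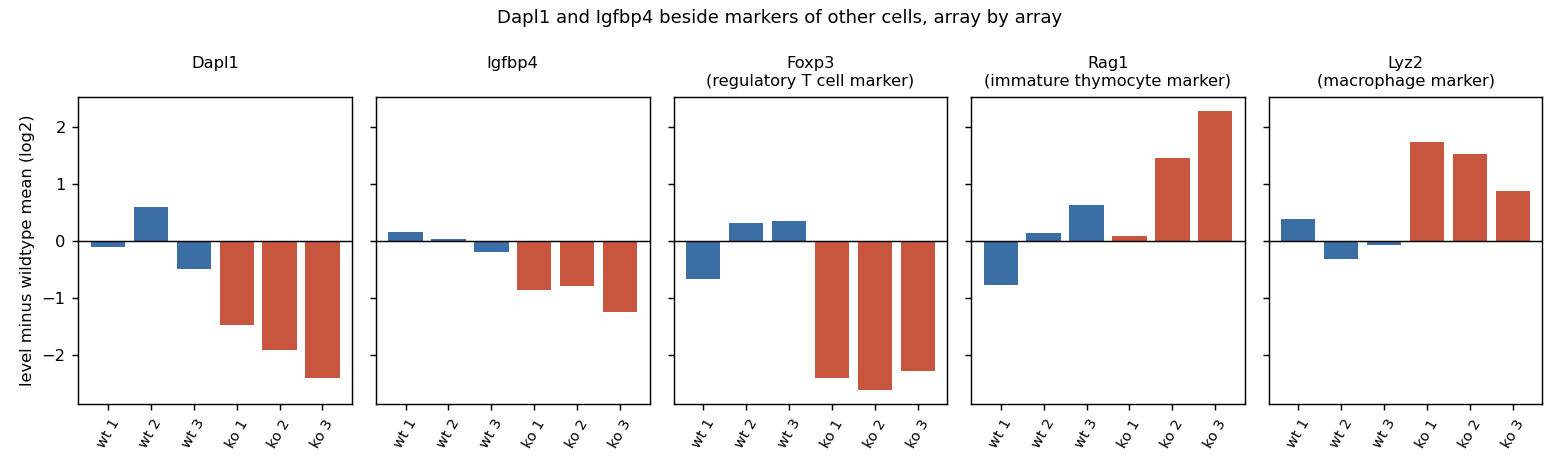
Level on each array minus the gene's wildtype mean (log2) for Dapl1 and Igfbp4 and for a marker each of regulatory T cells (Foxp3), immature thymocytes (Rag1) and macrophages (Lyz2), with wildtype in blue and knockout in red. Within wildtype Foxp3 and Rag1 are lowest in replicate 1 and highest in replicate 3. Dapl1 is highest in replicate 2 and Igfbp4 in replicate 1, and both are lowest in replicate 3. Among knockout arrays replicate 3 has the highest Rag1 and the lowest Dapl1 and Igfbp4.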

How the data were processed

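Gene expression was measured on 6 arrays, 3 per genotype. The deposited values are log2 levels, a scale read from their range of 1.10 to 13.2, and the submitters' processing notes name RMA and Partek without versions; a genome build is not named there. Array medians ran from 4.93 to 4.97, and RMA would hide a shift of all genes together. Arrays give no read depth, and their number limits the precision. Of 35556 probe sets, 21789 had 1 symbol in the platform annotation, which can be old; of these 21698 matched a RefSeq table (GRCm38.p6) by gene number. The highest-mean probe set stood for each of 19938 genes. Differences were fitted with limma 3.58.1 in R 4.3.3, two-sided, with Benjamini-Hochberg adjustment and a threshold of 0.05. The fit was tested on simulated data. It called 32.8% of changes of 0.5 log2 units, 89.6% of 1 and 100% of 2, and 6 unchanged genes. Most changes of 0.5 were thus missed.

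The members and lists were chosen with earlier results of these data known. Genes named were the 7 members, Bach2, from each list the called genes or otherwise the 2 with the smallest p, the lead markers, and the 4 genes most like each member. Others, such as Lef1, Klf2 and Ccr7, were named outside this rule with their values known. Samples came from separate mice per the design text, so replicate numbers were not taken as pairs. The labels describe mixed chimeras, in which 1 mouse holds both genotypes, so whether the numbers pair the arrays is not settled. Same-numbered arrays' deviations from group means correlated at 0.213, 0.113 and -0.065, and those of differently numbered arrays at -0.257 to 0.172. Alternatives were other priors, no moderation, a dim-gene filter, 2 rescalings, array weights, averaged or all probe sets, a replicate block and leaving out each array. Figures used matplotlib 3.10.9.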

Additional observations from a re-analysis of the deposited data

How the results depend on the processing

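The direction of the Dapl1 and Igfbp4 differences was the same in every alternative that could be fitted, and no member was called higher in any. The number of the 7 genes called lower, 2 with all arrays, was 0 without moderation, 0 with all 35556 probe sets tested and 1 without dim genes, a filter at a mean of 5.13 that removes Dapl1 itself; leaving out each array gave 1 to 2. With the replicate number as a block it was 2, and the numbers are not known to pair the samples. Among the other naive genes, 1 lower and 1 higher with all arrays became 2 and 2 with a prior that followed intensity and 0 and 0 without moderation. The higher count was also 2 without dim genes, 2 with array weights, 0 with all probe sets and 0 with the replicate block, and 0 to 2 when each array was left out. Over all genes, 43 lower and 70 higher became 78 lower with the intensity prior, 0 lower and 1 higher without moderation and 8 lower and 29 higher with all probe sets. The replicate block gave 55 lower and 79 higher. Leaving out each array gave 18 to 66 lower and 29 to 82 higher, with the fewest without wildtype replicate 3. Causes of these shifts were not tested.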
